A study of Rattus norvegicus with 6 samples.

Results

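The 10 genes described here are those by which fat cells of the bone marrow are usually recognised: Adipoq, Lep and Cfd (secreted proteins), Plin1, Plin4 and Cidec (lipid droplet proteins), Fabp4, Lpl and Pck1 (fatty acid handling) and Pparg (the transcription factor of the lineage). They were chosen by symbol, each matched 1 row, and they are 10 of the 34538 genes in the deposited tables. The RNA came from fractured femurs of female Sprague Dawley rats, an outbred stock. All rats of both groups had lost their ovaries at the age of 8 weeks, a model of osteoporosis, and 12 weeks later the left femoral shaft was cut and fixed with a nail of 1.2 mm. The sample was 1 cm of femur around the break. The groups were MgPA-Gel (3 libraries), in which an adhesive hydrogel built on plant phosphate coordination compounds was injected around the fracture, and Gel (3 libraries), given the gel alone. The sources used here give neither the age at harvest nor the time since fracture. Nor do the labels say whether a group's libraries are from separate rats, so the p-values describe only how these libraries vary. Every pair of libraries differed beyond counting error (mean chi-square per gene 49.5 to 462). Whether that spread lies between rats or is technical was not tested.

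Marrow adipocytes arise from the stromal progenitors that also give rise to osteoblasts, and loss of oestrogen is known to raise marrow fat. In a mature adipocyte, PPAR-gamma drives the genes of lipid uptake and storage, perilipins and CIDE proteins coat and enlarge the lipid droplet, and adiponectin, leptin and adipsin are secreted. Several of these genes are not private to adipocytes: Fabp4 is also made by endothelial cells and macrophages, Lpl by macrophages and muscle, Pparg by macrophages and osteoclast precursors, and Pck1 by liver and kidney. The gene lists used here also set Cfd among the genes shared with other cells.

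Total counts ran from 15404837 to 18197777 in MgPA-Gel and from 13629242 to 16239471 in Gel. Genes on the mitochondrial chromosome took 25.9%, 5.29% and 6.1% of counts in MgPA-Gel 1, 2 and 3, and 24%, 8.64% and 8.83% in Gel 1, 2 and 3, so that library 1 of each group stands apart. Of the osteoblast list, Col1a1 was abundant in every library, at 31300 to 61300 CPM in MgPA-Gel and 52100 to 98400 CPM in Gel. Other genes of that list were far lower, down to Phex at 15.8 to 30.7 CPM in MgPA-Gel and 11.4 to 44.5 CPM in Gel. CPM is the count scaled to library size by the TMM method.

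The 10 genes fell into levels that lie far apart. Per length, Fabp4 was the most abundant (mean over the 6 libraries 164 FPKM, the count divided by gene length and library size), then Cfd (82.2), Lpl (44.3), Pparg (2.55), Adipoq (0.8), Plin4 (0.572), Cidec (0.23), Plin1 (0.169), Pck1 (0.15) and Lep (0.0796). Each neighbouring pair in that order overlapped in its range over the libraries, except Lpl (21.8 to 103 FPKM) and Pparg (1.9 to 3.07 FPKM). Fabp4, Cfd and Lpl together made up 95.5%, 97.7% and 98.9% of the summed CPM of the 10 genes in MgPA-Gel 1, 2 and 3, and 95.5%, 97% and 95.4% in Gel 1, 2 and 3. Scarcest in counts over all 6 libraries were Lep with 24, Pck1 with 34, Plin1 with 44, Cidec with 48 and Adipoq with 146.

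No gene of the 10 differed between MgPA-Gel and Gel beyond the spread of the libraries. Of the 10, 6 had enough counts to be tested across all genes (Adipoq, Plin4, Pparg, Fabp4, Lpl and Cfd), and 0 passed an adjusted p of 0.05 in edgeR's quasi-likelihood test (each adjusted p = 0.998). The same test called 0 of 14818 genes (0%), with 389 at an unadjusted p under 0.05, none of them among the 10. DESeq2 called 10 genes and limma-voom 0, again none of the 10. By group mean 5 of the 10 were higher in MgPA-Gel (Fabp4, Lpl, Cfd, Plin4 and Lep) and 5 lower, while 55.1% of all 21806 detected genes had the higher mean in MgPA-Gel. In 0 of the 10 did the libraries of MgPA-Gel lie wholly above or below those of Gel, a separation found in 6.88% of all genes tested. The median log2 fold change of the 6 genes tested was 0.4, against 0.03 over all genes tested. The median was -0.03 over all 10 without a filter on low counts. Over 6 genes it was 0.23 without Gel 3 and 0.7 without Gel 1. In the other fits with 1 library left out, 7 of the 10 were fitted, so the set of genes changed as well. There the median was -0.03 without MgPA-Gel 3, 0.11 without MgPA-Gel 1, 0.3 without Gel 2 and 0.55 without MgPA-Gel 2.

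**Figure D1:**
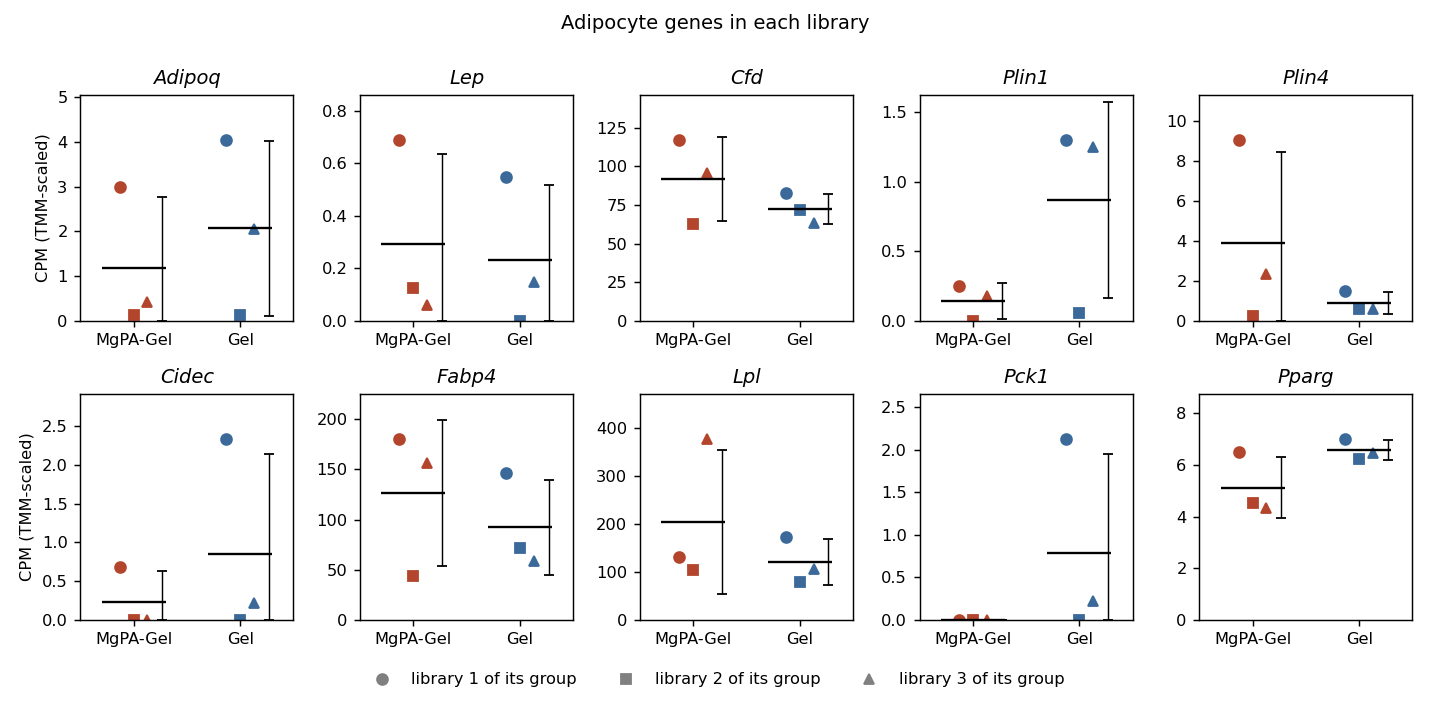
TMM-scaled CPM of the 10 genes in each library, MgPA-Gel left and Gel right in every panel, with the group mean (horizontal line) and SD (bar beside the points, ended at 0 where it would pass below, n = 3). Adipoq is near 0 in library 2 of both groups, Lpl is highest in MgPA-Gel 3 (377 CPM) and Pck1 has no count in any MgPA-Gel library.

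Adipoq encodes adiponectin, the circulating hormone of fat cells (ENSRNOG00000001821, chromosome 11, 81330293 to 81344488; positions of genes are copied from the deposited table, for which no source used here names a build). It stood at 3, 0.126 and 0.41 CPM in MgPA-Gel 1, 2 and 3, against 4.04, 0.116 and 2.05 CPM in Gel 1, 2 and 3. The high libraries were thus 1 of MgPA-Gel and 2 of Gel, and the groups overlapped almost completely. The highest library held 35-fold the CPM of the lowest, whereas the group means were 1.18 ± 1.58 CPM in MgPA-Gel and 2.07 ± 1.96 CPM in Gel (SD, n = 3 each). The log2 fold change was -0.8 ± 1.34 (SE; 95% interval -4.02 to 2.41), an interval that spans large differences in both directions. Without Gel 1 it was 0.14, and without MgPA-Gel 1 it was -2.89. The spread of its log2 CPM over the libraries (SD 1.85) was larger than that of 97.5% of all genes tested.

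Lep, which encodes the satiety hormone leptin (ENSRNOG00000045797, chromosome 4, 56337695 to 56351818), was close to the limit of detection. It had 11, 2 and 1 counts in MgPA-Gel 1, 2 and 3, against 8, 0 and 2 counts in Gel 1, 2 and 3. Library 1 of each group held most of them. Pooled over each group, the rate in MgPA-Gel was 1.3 times that in Gel (95% exact interval 0.538 to 3.28, which covers counting error only), and an exact two-sided permutation test over libraries gave p = 0.8, where 0.1 is the smallest that 3 against 3 allows. Cfd, which encodes adipsin (complement factor D), the protease that starts the alternative complement pathway (ENSRNOG00000033564, chromosome 7, 12634216 to 12635943), was well measured. It stood at 117, 62.5 and 96 CPM in MgPA-Gel 1, 2 and 3, against 82.6, 71.5 and 63.5 CPM in Gel 1, 2 and 3. MgPA-Gel 2 lay below all Gel libraries and the other two above them, and the log2 fold change was 0.34 ± 0.25 (95% interval -0.26 to 0.94). The spread of Cfd was ordinary, larger than that of 50.1% of all genes tested, so that it varied far less than Adipoq.

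The lipid droplet genes were also uneven. Plin1, the perilipin that gates lipolysis on the droplet surface (ENSRNOG00000015086, chromosome 1, 141458181 to 141471010), had 4, 0 and 3 counts in MgPA-Gel 1, 2 and 3, against 19, 1 and 17 counts in Gel 1, 2 and 3. Gel 1 and Gel 3 lay above all MgPA-Gel libraries, while Gel 2, with 1 count, lay below MgPA-Gel 1 and 3. The pooled rate in MgPA-Gel was 0.176 times that in Gel (95% exact interval 0.0663 to 0.4, counting error only), and over libraries the exact two-sided permutation test gave p = 0.3. Cidec, which fuses droplets into the single large one of a white adipocyte (ENSRNOG00000009153, chromosome 4, 145377431 to 145390497), had 11, 0 and 0 counts in MgPA-Gel 1, 2 and 3, against 34, 0 and 3 counts in Gel 1, 2 and 3. Of its 37 Gel counts, Gel 1 held all but 3. Its pooled rate in MgPA-Gel was 0.277 times that in Gel (0.127 to 0.554, counting error only; exact two-sided permutation p = 0.7).

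Plin4, a perilipin of small and nascent droplets that is also found in muscle (ENSRNOG00000047046, chromosome 9, 10963723 to 10971277), followed other libraries than Plin1 and Cidec. It stood at 9.06, 0.252 and 2.34 CPM in MgPA-Gel 1, 2 and 3, against 1.51, 0.578 and 0.586 CPM in Gel 1, 2 and 3. MgPA-Gel 1 and 3 were the highest libraries and MgPA-Gel 2 the lowest. Among the 10 genes, Plin4 was closest in pattern to Cfd (Pearson r of log2 CPM 0.98) and Fabp4 (0.91). Its log2 fold change of 2.12 ± 1.13 (95% interval -0.59 to 4.82) was the largest of the 6 and was 0.55 without MgPA-Gel 1. The same MgPA-Gel 1 and 3 led in skeletal muscle fibre genes: the summed level of 10 measured genes of that list was 43000, 109 and 1470 CPM in MgPA-Gel 1, 2 and 3, against 533, 298 and 12.5 CPM in Gel 1, 2 and 3, with none of the 10 at 0 throughout. The part of muscle in the level of Plin4 was not tested.

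Pck1 encodes cytosolic PEP carboxykinase, which makes the glycerol backbone of stored fat in adipocytes and glucose in liver (ENSRNOG00000028616, chromosome 3, 171213936 to 171219871). It had 0 counts in all 3 MgPA-Gel libraries, against 31, 0 and 3 counts in Gel 1, 2 and 3. Taking 3 counts over the group as the limit that a count of 0 allows, its pooled rate was at least 12.2-fold lower in MgPA-Gel. That bound rests on Gel 1, since the 3 counts of Gel 3 are at the same limit and Gel 2 had none. The exact two-sided permutation p over libraries was 0.4. Without a filter on low counts edgeR gave Pck1 an unadjusted p of 0.0344 and an adjusted p of 0.946. Of 7 measured liver and kidney genes, Alb, Ttr, Tat and Umod had no count in any library, and the summed level of the list was 0.375 to 0.757 CPM in MgPA-Gel and 0.206 to 0.924 CPM in Gel.

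The stretch before the start site is shown for Pck1 and Lep because these 2 promoters held an exact match to a regulatory element of 8 bases that is well known in each gene. Of the 10 genes 8 were matched by symbol in the RefSeq promoter table (build GRCr8), with 13 start sites, and Fabp4 and Lpl are named only. The Pck1 window is chr3:182348322-182348571 on the + strand, positions -250 to -1 from the start site, and the Lep window is chr4:58626288-58626528 on the + strand, positions -250 to -10, ended there because an annotated transcript of Lep begins further upstream. Capitals mark the motifs found on either strand: in Pck1 the half-site AGGTCA of nuclear receptors at -144 and the cAMP response element TTACGTCA at -93, and in Lep the CCAAT box, read as ATTGG, at -104 and the C/EBP palindrome TTGCGCAA at -69.
Pck1: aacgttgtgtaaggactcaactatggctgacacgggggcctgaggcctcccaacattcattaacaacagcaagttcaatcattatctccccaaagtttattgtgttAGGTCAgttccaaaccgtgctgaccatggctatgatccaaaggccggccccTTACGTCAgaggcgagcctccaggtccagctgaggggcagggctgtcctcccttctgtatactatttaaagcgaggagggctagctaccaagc
Lep: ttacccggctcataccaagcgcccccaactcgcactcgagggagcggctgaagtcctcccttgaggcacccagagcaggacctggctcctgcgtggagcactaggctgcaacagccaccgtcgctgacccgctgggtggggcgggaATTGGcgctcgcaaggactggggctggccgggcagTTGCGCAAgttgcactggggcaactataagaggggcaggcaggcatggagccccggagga
Over 33469 rat windows of 250 bases, AGGTCA was present in 14.1%, TTACGTCA in 0.75%, TTGCGCAA in 0.14% and CCAAT in 34%. The last was also present before Adipoq, Plin1 and 1 of 2 start sites of Pparg. A direct repeat of AGGTCA spaced by 1 base, the element that PPAR-gamma binds with its partner RXR, was in 0 of the 13 windows and in 0.0508% of all. TATAAA was in 0 of the 13 and in 12.9% of all. The motifs were chosen after the sequences had been read, and a match or its absence is only a description of these letters.

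Fabp4 and Lpl, which carry and release fatty acids, were abundant and varied several-fold. Fabp4, the fatty acid binding protein of adipocyte cytosol (ENSRNOG00000010805, chromosome 2, 93792601 to 93797305), stood at 180, 43.6 and 156 CPM in MgPA-Gel 1, 2 and 3, against 146, 72 and 58.3 CPM in Gel 1, 2 and 3. MgPA-Gel held both the highest and the lowest library, and the log2 fold change was 0.46 ± 0.58 (95% interval -0.93 to 1.84; 0.11 without MgPA-Gel 1 and 0.95 without Gel 1). The summed level of 9 measured endothelial genes was 780, 1060 and 982 CPM in MgPA-Gel 1, 2 and 3, against 1150, 1390 and 773 CPM in Gel 1, 2 and 3, with Cldn5 at 0 throughout. The macrophage list summed to 3320, 7350 and 3640 CPM in MgPA-Gel and to 3970, 6430 and 2800 CPM in Gel, with none of its 10 genes at 0 throughout. Lyz2, a lysozyme that neutrophils also make, held most of that sum. Without it the other 9 genes summed to 1110, 1160 and 1940 CPM in MgPA-Gel 1, 2 and 3, against 1350, 1270 and 1190 CPM in Gel 1, 2 and 3. The part of endothelial cells and macrophages in the level of Fabp4 was not tested.

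Lpl encodes lipoprotein lipase, which frees fatty acids from circulating triglyceride (ENSRNOG00000012181, chromosome 16, 22537056 to 22561496). It stood at 132, 104 and 377 CPM in MgPA-Gel 1, 2 and 3, against 174, 79.8 and 107 CPM in Gel 1, 2 and 3. MgPA-Gel 3 stood alone above the other 5 libraries, among which the groups were mixed. The log2 fold change of 0.77 ± 0.55 (95% interval -0.54 to 2.07) rested on that library and was -0.03 without it. MgPA-Gel 3 was also the library richest in osteoclast genes. The 8 measured genes of that list summed to 8450, 2100 and 15300 CPM in MgPA-Gel 1, 2 and 3, against 9790, 7130 and 7320 CPM in Gel 1, 2 and 3, and Ctsk, the collagen-degrading protease of osteoclasts, stood at 5260, 1470 and 10800 CPM in MgPA-Gel, against 6180, 4400 and 4530 CPM in Gel. The myeloid receptor Csf1r was at 355, 287 and 831 CPM in MgPA-Gel, against 576, 435 and 391 CPM in Gel. Ctsk and Csf1r were picked after their values were seen, and not all genes of the osteoclast and macrophage lists were highest in MgPA-Gel 3. Cd68 was (430 CPM), but Adgre1 was highest in MgPA-Gel 1 (72.3 CPM, against 32 CPM in MgPA-Gel 3). Mrc1 and Oscar were highest in MgPA-Gel 2 (147 and 63.7 CPM, against 83.5 and 30.3 CPM in MgPA-Gel 3). The part of osteoclasts and macrophages in the level of Lpl was not tested.

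Pparg, the nuclear receptor that commits progenitors to the adipocyte lineage (ENSRNOG00000008839, chromosome 4, 147274107 to 147399380), was the steadiest of the 10. It stood at 6.5, 4.54 and 4.33 CPM in MgPA-Gel 1, 2 and 3, against 6.99, 6.24 and 6.45 CPM in Gel 1, 2 and 3. MgPA-Gel 2 and 3 lay below every Gel library, while MgPA-Gel 1 lay above Gel 2 and Gel 3. The means were 5.12 ± 1.2 CPM in MgPA-Gel and 6.56 ± 0.387 CPM in Gel (SD, n = 3 each), a log2 fold change of -0.36 ± 0.28 (95% interval -1.01 to 0.3). The value stayed below 0 in all 18 alternatives run for it, from -0.56 to -0.25, without passing the threshold in any (smallest adjusted p = 0.936). With total counts in place of TMM scaling, the groups did not overlap.

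**Figure D2:**
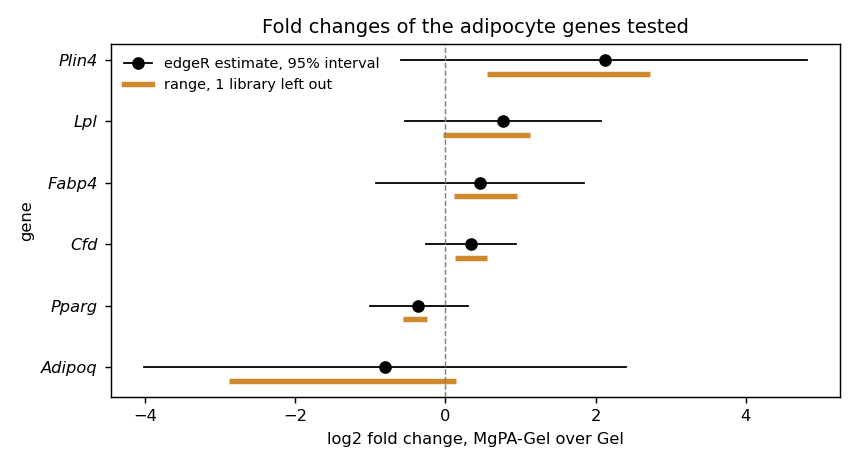
Log2 fold change (MgPA-Gel over Gel) of the 6 genes tested, with the edgeR estimate (point), its 95% interval (black line) and the range of estimates when 1 library is left out (orange bar). Every 95% interval includes 0, and the orange bars of Adipoq (-2.89 to 0.14) and Lpl (-0.03 to 1.13) cross 0.

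Adipoq, Lep, Plin1 and Cidec together had 74, 4 and 11 counts in MgPA-Gel 1, 2 and 3, against 120, 3 and 50 counts in Gel 1, 2 and 3. Gel 1, MgPA-Gel 1 and Gel 3, libraries of both groups, thus held 244 of the 262 counts (93.1%). Adipoq alone was clearly high in all 3: Lep had 2 counts in both Gel 3 and MgPA-Gel 2, Plin1 had 4 counts in MgPA-Gel 1, close to the 3 counts of MgPA-Gel 3, and Cidec had 3 counts in Gel 3. In CPM the sum was 4.63, 0.252 and 0.644 in MgPA-Gel 1, 2 and 3, against 8.22, 0.173 and 3.66 in Gel 1, 2 and 3, a 47.4-fold range. These 4 were set together after Plin4 was seen to follow other libraries. In bulk RNA, fewer adipocytes and less of these transcripts per adipocyte cannot be told apart.

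The genes most like a set of the adipocyte genes in pattern were partly genes of red cell precursors. That set includes Plin4, which followed other libraries than Plin1 and Cidec. Among 11445 named genes, those with the highest Pearson r to the mean profile of Adipoq, Lep, Plin1, Plin4 and Cidec over the 6 libraries included Hes1, Crym, Kel, Ermap, Spout1, Fhdc1 and Car1. Their r ran from 0.981 (Car1) to 0.996 (Hes1), values picked as the highest of many over 6 libraries that share their scaling. Kel (the Kell blood group protein), Ermap (an erythroblast membrane protein) and Car1 (a carbonic anhydrase of red cells) are known from erythroid cells, and Hes1 is a repressor induced by Notch. Car1 stood at 45.8, 1.39 and 1.93 CPM in MgPA-Gel 1, 2 and 3, against 38.8, 0.693 and 10.2 CPM in Gel 1, 2 and 3. Hes1, with the highest r, moved little, from 20.3 to 30.6 CPM in MgPA-Gel and from 20.1 to 32.4 CPM in Gel.

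A list of erythroid genes and one of neutrophil granule genes were drawn up after these values were seen. The summed level of 9 measured erythroid genes was 553, 30.7 and 22.2 CPM in MgPA-Gel 1, 2 and 3, against 472, 5.37 and 184 CPM in Gel 1, 2 and 3. That list holds Kel, Ermap and Car1, which were picked for their likeness. Without them the 6 others summed to 489, 27.6 and 17.8 CPM in MgPA-Gel, against 407, 3.23 and 164 CPM in Gel. The summed level of 6 neutrophil granule genes made in marrow precursors (Mpo, Elane, Ngp, Camp, Prtn3 and Ctsg) was 91.8, 17.9 and 8.25 CPM in MgPA-Gel, against 44.5, 7.16 and 34.2 CPM in Gel. Single genes of the granule list departed from its sum: Elane stood at 3.75, 3.03 and 0.878 CPM in MgPA-Gel, against 2.47, 0.404 and 2.35 CPM in Gel. Camp was at 6.44 CPM in MgPA-Gel 2 and 5.94 CPM in Gel 3, and Prtn3 at 0.946 CPM in MgPA-Gel 2 and 0.617 CPM in Gel 1. Mpo, Elane, Ngp and Camp also belong to a broader neutrophil list of 10 genes, led by S100a8, S100a9 and Csf3r, which was highest in MgPA-Gel 2 and lowest in Gel 3 (values with the droplet genes). Mmp8 of that broader list was left out of the granule list. It stood at 33, 135 and 5.85 CPM in MgPA-Gel 1, 2 and 3, against 13.6, 15.5 and 4.1 CPM in Gel 1, 2 and 3. Its level in MgPA-Gel 2 was above the granule sum of any library, so the order of that sum depends on its absence. Gel 1, MgPA-Gel 1 and Gel 3 were the 3 highest libraries in the erythroid and the granule sums, as for the sum of Adipoq, Lep, Plin1 and Cidec, and none of the 15 genes was at 0 throughout. Of these 3 libraries, Gel 1 and MgPA-Gel 1 also had the high mitochondrial share. Without both, Adipoq and Plin4 had too few counts to be tested, and the log2 fold change was 0.6 for Fabp4, 1.36 for Lpl, 0.21 for Cfd and -0.54 for Pparg (edgeR adjusted p = 1 each). How much marrow each 1 cm sample held, and its part in these levels, was not tested.

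**Figure D3:**
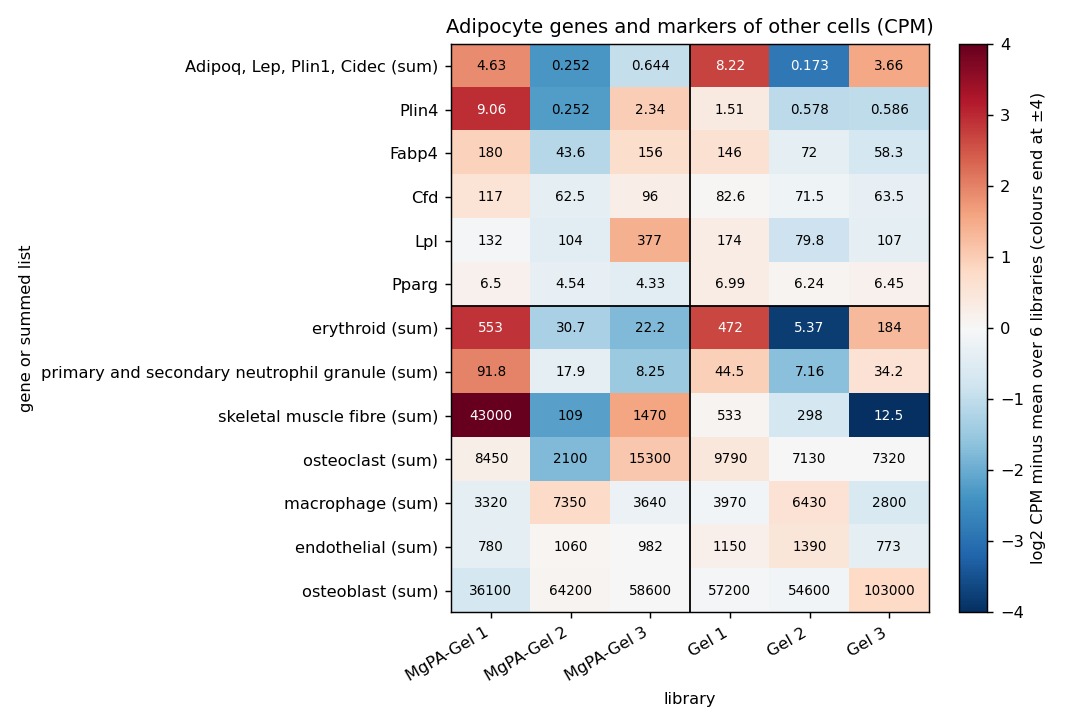
Level of adipocyte genes (above the line) and summed levels of marker lists of other cells (below it) in each library, MgPA-Gel left of Gel. Numbers are TMM-scaled CPM, colours are log2 CPM relative to the mean of the 6 libraries, and the sum of Adipoq, Lep, Plin1 and Cidec is high in MgPA-Gel 1, Gel 1 and Gel 3, as are the erythroid and neutrophil granule sums, while Plin4 is highest in MgPA-Gel 1 and Lpl in MgPA-Gel 3. The erythroid and granule lists were drawn up after the values were seen. The broader neutrophil list, not shown, was highest in MgPA-Gel 2 (2760 CPM) and lowest in Gel 3 (82.2 CPM).

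The further list of genes usually enriched in fat summed to 656, 491 and 256 CPM in MgPA-Gel 1, 2 and 3, against 321, 253 and 469 CPM in Gel 1, 2 and 3, another library order than that of Adipoq. The high place of MgPA-Gel 2 in that order rests on 1 gene of the list, G0s2, which myeloid cells also make. G0s2 stood at 278 CPM in MgPA-Gel 2, most of the sum there, against 27.4 CPM or less in every other library. Without G0s2, MgPA-Gel 2 would lie below Gel 1 and Gel 3. The highest libraries would then be MgPA-Gel 1, Gel 3 and Gel 1, as for Adipoq, though in another order. G0s2 was singled out after its values were seen, so this likeness is only a description. A few abundant genes lead the remaining sum: Car3, Aoc3 and, in MgPA-Gel 1, Slc2a4 and Gpd1. Gpd1 stood at 134 CPM in MgPA-Gel 1 and at 9.52 CPM or less in every other library. Of the 20 genes of the list 12 had enough counts, 5 with a higher and 7 with a lower mean in MgPA-Gel. Of these, 0 passed the threshold, and the median log2 fold change was -0.08 (0.03 over all genes tested). Thrsp, a regulator of fatty acid synthesis named here after its values were seen, stood at 1.63, 0.189 and 0.0585 CPM in MgPA-Gel 1, 2 and 3, against 4.86, 0.0578 and 0.733 CPM in Gel 1, 2 and 3. Its 3 highest libraries were those of Adipoq, but other genes of the list departed from that order. Lipe and Rbp4 were highest in Gel 2 (35.1 and 23.6 CPM), where Adipoq was lowest. Slc2a4, the insulin-regulated glucose transporter of fat and muscle, stood at 97.6 CPM in MgPA-Gel 1 and at 3.79 and 7.55 CPM in MgPA-Gel 2 and 3, against 4.22 to 8.36 CPM in Gel, so that it was high in the library with the most muscle transcript. Car3 (58.9 to 196 CPM in MgPA-Gel, 78.1 to 168 CPM in Gel) and Aoc3 (44.3 to 80.3 CPM in MgPA-Gel, 52.9 to 160 CPM in Gel) were abundant and overlapped. The 7 measured brown adipocyte genes summed to 161, 3.28 and 13.1 CPM in MgPA-Gel, against 9.8, 6.18 and 5.57 CPM in Gel, highest in the same 2 libraries as the muscle genes. That high sum in MgPA-Gel 1 rests on 1 gene, Cox8b. It stood at 155, 0.189 and 4.39 CPM in MgPA-Gel 1, 2 and 3, against 2.19, 1.56 and 0.513 CPM in Gel 1, 2 and 3. Ucp1, the uncoupling protein that defines brown fat, had no count in any library.

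Genes of droplets and lipolysis outside the 10 had their highest summed level in MgPA-Gel 2, where Adipoq was nearly absent: 316, 709 and 282 CPM in MgPA-Gel 1, 2 and 3, against 255, 311 and 240 CPM in Gel 1, 2 and 3. G0s2, an inhibitor of the lipase ATGL that myeloid cells also make, stood at 27.4, 278 and 12.3 CPM in MgPA-Gel 1, 2 and 3, against 0.733 to 10.8 CPM in Gel. All MgPA-Gel libraries lay above all Gel libraries (1 of 10 genes tested in the list without overlap, against 6.88% of all genes tested), and the log2 fold change of 4.41 ± 1.55 did not pass (edgeR adjusted p = 0.998). Plin2, the perilipin of non-adipocyte droplets, stood at 58.9, 228 and 71.1 CPM in MgPA-Gel, against 63, 95 and 44.2 CPM in Gel, and Abhd5, the ATGL co-activator, at 49.6 to 78.7 CPM in MgPA-Gel and 65.6 to 73.1 CPM in Gel. Fitm1, which helps form droplets in muscle, was at 43.4, 0 and 3.34 CPM in MgPA-Gel, against 1.23, 1.21 and 0.22 CPM in Gel. Of the 13 genes of this list 10 were tested, 7 with a higher and 3 with a lower mean in MgPA-Gel, 0 past the threshold, median log2 fold change 0.17. The neutrophil list, also highest in MgPA-Gel 2, summed to 809, 2760 and 200 CPM in MgPA-Gel 1, 2 and 3, against 216, 289 and 82.2 CPM in Gel 1, 2 and 3. Its part in these levels was not tested.

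Enzymes of triglyceride and fatty acid synthesis gave 10 higher and 3 lower means in MgPA-Gel among 13 tested, 0 past the threshold, median log2 fold change 0.2. Dgat2, which makes triglyceride from diglyceride, stood at 37.6, 317 and 44.9 CPM in MgPA-Gel 1, 2 and 3, against 29.5, 37.6 and 19.3 CPM in Gel 1, 2 and 3, and its relative Dgat1 at 31.8 to 35.3 CPM in MgPA-Gel and 25 to 28.3 CPM in Gel. For Dgat1 and Dgat2 the MgPA-Gel libraries lay above the Gel libraries, in Dgat2 by a margin too small to show in the digits given (2 of 13 in the list, against 6.88% of all genes tested). Acly (log2 fold change -0.11 ± 0.16) and Me1 (0.38 ± 0.21) make the acetyl-CoA and NADPH for the pathway. Lipid uptake genes were even, with 4 higher and 4 lower of 8 tested, 0 past the threshold and a median of -0.04. In that list Angptl4, a secreted inhibitor of lipoprotein lipase, stood at 21.7, 403 and 53.8 CPM in MgPA-Gel, against 66.5, 135 and 30.9 CPM in Gel. Apoe was at 2180 to 4420 CPM in MgPA-Gel and 2030 to 2600 CPM in Gel, and Fabp5 differed by -0.15 ± 0.46.

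Among 12 adipogenic transcription factors tested, 9 had a higher and 3 a lower mean in MgPA-Gel, 0 past the threshold, with a median log2 fold change of 0.37. Cebpa, which sustains Pparg in adipocytes and is also a factor of granulocytes, stood at 38.4, 68 and 63.3 CPM in MgPA-Gel 1, 2 and 3, against 68.1, 81.6 and 72.6 CPM in Gel 1, 2 and 3. All MgPA-Gel libraries were lower, in MgPA-Gel 2 by a narrow margin (log2 fold change -0.39 ± 0.24). The early factors Cebpb and Cebpd were highest in MgPA-Gel 2. Cebpb stood at 151, 1140 and 212 CPM in MgPA-Gel, against 123, 364 and 88 CPM in Gel, and Cebpd at 59.6, 364 and 86.1 CPM in MgPA-Gel, against 48.8, 155 and 58.3 CPM in Gel. Klf5, an early adipogenic factor, stood at 23.6, 7.26 and 5.33 CPM in MgPA-Gel, against 3.15, 3.41 and 2.86 CPM in Gel (log2 fold change 1.94 ± 0.58), and Srebf1, which switches on lipid synthesis genes, at 28.3 to 34.1 CPM in MgPA-Gel and 21.8 to 25.5 CPM in Gel (0.46 ± 0.16). Both were without overlap and neither passed (edgeR adjusted p = 0.998 each). Ebf2, a factor of early adipocyte commitment, stood at 4.16 to 6.06 CPM in MgPA-Gel and 3.01 to 3.81 CPM in Gel, and Zfp423, a factor of white preadipocytes, at 9.59 to 9.95 CPM in MgPA-Gel and 11.9 to 14.5 CPM in Gel. These 5 genes (Cebpa, Klf5, Srebf1, Ebf2 and Zfp423) were the ones without overlap among the 12, against 6.88% of all genes tested.

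Of 7 genes of adipokines and their receptors tested, 4 had a higher and 3 a lower mean in MgPA-Gel, 0 past the threshold, median 0.08. Adipor1, the widely made adiponectin receptor, stood at 210 to 261 CPM in MgPA-Gel and 189 to 249 CPM in Gel, and Cdh13, which binds adiponectin at the cell surface, at 110 to 136 CPM in MgPA-Gel and 129 to 184 CPM in Gel (log2 fold change -0.37 ± 0.2). Rarres2, which encodes chemerin, differed by 0.19 ± 0.31. Lepr, the leptin receptor that marks marrow stromal progenitors, stood at 5.5, 2.9 and 5.97 CPM in MgPA-Gel 1, 2 and 3, against 5.96, 5.37 and 11.9 CPM in Gel 1, 2 and 3 (-0.69 ± 0.44). Of 12 stromal genes tested 4 had a higher and 8 a lower mean in MgPA-Gel, 0 past the threshold, median -0.16, with Cxcl12, the niche chemokine, at -0.24 ± 0.29, Gas6 at -0.45 ± 0.36 and Igfbp4 at -0.16 ± 0.35. Ebf1, needed for both adipocyte and B cell development, was the 1 gene of these 12 whose groups did not overlap, against 6.88% of all genes tested (34.2 to 46.6 CPM in MgPA-Gel, 48.8 to 86.5 CPM in Gel, log2 fold change -0.66 ± 0.27).

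**Figure D4:**
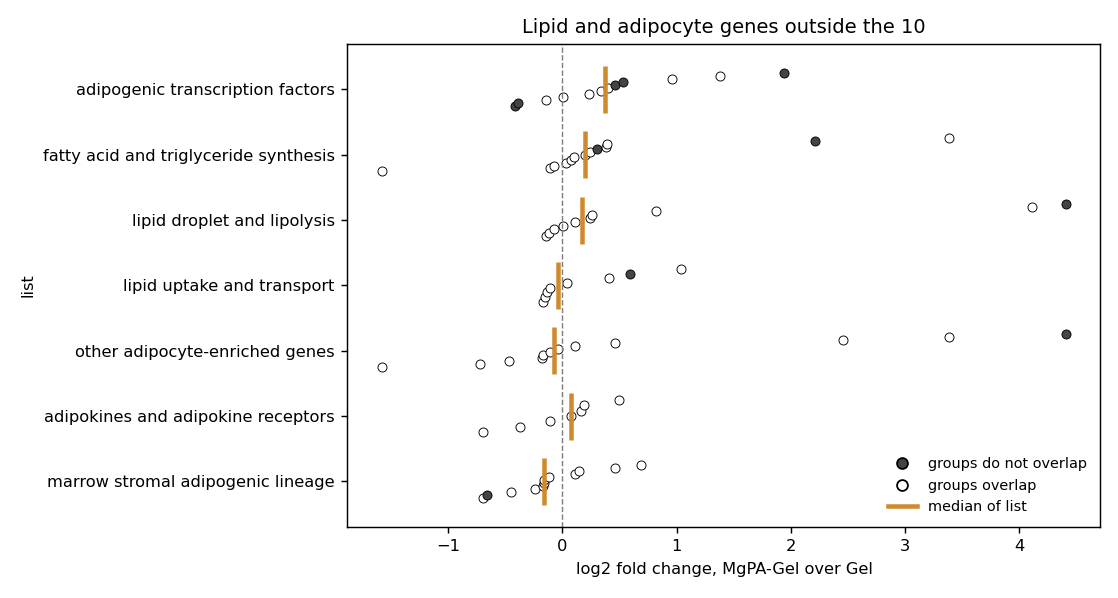
Log2 fold change (MgPA-Gel over Gel) of the genes tested in 7 further lists of lipid and adipocyte genes, 1 point per gene, filled where the libraries of the 2 groups do not overlap, with the median of each list (orange). Medians run from -0.16 (marrow stromal adipogenic lineage) to 0.37 (adipogenic transcription factors), and in some of the lists single genes lie far from the median.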

How the data were processed

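Counts and FPKM of 6 poly-T selected libraries (1.3 µg of RNA, fragments of 370 to 420 bp per the labels' protocols) were analysed. The authors deposited whole-number gene counts, not normalized, and FPKM. The submitters' processing notes list, without roles, featureCounts 1.5.0-p3, HISAT2 2.0.5, fastp, StringTie 1.3.3b, edgeR 3.22.5 and DESeq2 1.20.0. Build and strandedness are not given in the sources used here, so overlapping antisense genes cannot be told apart. Of 46230 count rows, 11692 were blank and left out (0% of counts), as were 2 unnamed columns of means. Deposited FPKM equalled counts over gene length and 1 library size per library (within 1%, in 100% of genes).

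Here edgeR 4.0.16 (R 4.3.3) kept 14818 genes (filterByExpr), scaled by TMM and compared MgPA-Gel with Gel by the quasi-likelihood test, with Benjamini-Hochberg adjustment over all genes. Intervals of fold changes use the t distribution. DESeq2 1.42.0, limma 3.58.1, other scalings and filters, FPKM with pseudocounts 1 and 0.1, and left-out libraries were alternatives. The test was checked on simulated counts. Genes, lists and rules were chosen with earlier results of these data known. The rule named all 10 genes and, per lipid list, the 3 of highest mean CPM and 2 of smallest p; of 164 listed symbols 157 were found. Some genes that the rule named are not reported here. Prior count 2 was used for log2 CPM. Intervals on counts and the limit of 3 counts cover counting error only. The common spread between libraries was a coefficient of variation of 41.3%.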

Additional observations from a re-analysis of the deposited data

How the results depend on the processing

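None of the 10 genes, where fitted, passed an adjusted p of 0.05 in any of the 18 alternatives; the smallest adjusted p was 0.936, and the smallest unadjusted p was 0.0107 (Plin4 without MgPA-Gel 2). The number of genes called over the whole table was 0 by edgeR, 10 by DESeq2 (8 higher and 2 lower in MgPA-Gel) and 0 to 2 when 1 library was left out (2 without MgPA-Gel 2); an adjusted p of 0.1 also gave 0. The count of the 10 genes with separate groups was 0 with TMM scaling, 1 with total counts (Pparg), 1 without Gel 1 and MgPA-Gel 1 (Pparg) and 0 to 3 when 1 library was left out: 1 without MgPA-Gel 1 (Pparg), 2 without Gel 2 (Plin1 and Pck1) and 3 without MgPA-Gel 2 (Fabp4, Plin4 and Cfd). Fewer libraries separate more easily. Adipoq ran from -2.89 (without MgPA-Gel 1) to 0.14 (without Gel 1), and Lpl from -0.03 (without MgPA-Gel 3) to 1.13 (without Gel 1), over the fits with 1 library left out; Plin4, Fabp4, Cfd and Pparg kept their sign in all alternatives in which they were fitted. Deviations from the group means correlated by 0.25, 0.2 and -0.03 in same-numbered pairs of libraries, and by -0.29 to 0.06 in differently numbered pairs. The values 0.25 and 0.2 were the highest of all pairs, and whether the replicate numbers pair the libraries was not settled. With the replicate number as a block, 0 genes passed, as without it, and 464 genes had an unadjusted p under 0.05, against 389 without it. Counts of 0 to 59 limit Adipoq, Lep, Plin1, Cidec and Pck1.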
